A study of Mus musculus with 24 samples.

Results

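The heart of mice lacking Nur77 was compared with the heart of wild-type mice on 4 two-colour arrays, out of 24 arrays that covered 6 organs in the same way. Its members are all 4 arrays titled as Nur77-/- heart, replicates 1 to 4. RNA of the mutant pool carried Cy5 on replicates 1 and 2 and Cy3 on replicates 3 and 4, and RNA of the wild-type (Nur77+/+) pool carried the other dye. The series' design text gives 7 mice in each pool, whereas the labelling protocol gives a control pool of 6 animals, and the difference could not be settled. The strain, age and sex of the mice, the kind of mutant allele and any treatment were not stated. Because each array repeats a comparison of the same pools, p-values reflect hybridisation error alone, without the variation among mice, and the number of arrays limits the precision.

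Nur77 is the product of Nr4a1, one of the NR4A family of orphan nuclear receptors, transcription factors whose activity is set mainly by how much of them a cell makes. Nr4a1 is an immediate early gene: its transcript appears soon after a stimulus, and in heart muscle cells adrenergic signals and stress are among the known inducers. As a monomer the protein binds a DNA element called NBRE, and in striated muscle it is known for acting on genes of glucose and fat use. Heart muscle draws most of its energy from the oxidation of fatty acids in mitochondria, which fill much of the cell between the sarcomeres.

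Each value is the deposited log2 ratio of a probe on an array, read as mutant over wild type. The direction is not stated and is therefore only likely. Its basis is that ratios beyond a size of 15 (242, 220, 538 and 148 on replicates 1 to 4, left out as not measured) were all positive with the mutant in Cy5 and all negative with the mutant in Cy3, so the ratios had been turned to 1 orientation, and that Nr4a1 lay below 0 on every heart array. Between 16720 and 18236 values per array were kept. Probes of 1 gene were averaged, and 13844 rows, 8626 of them with a gene symbol, had values on at least 3 of the 4 arrays and in both dye orientations. Of these rows, 11241 had 4 values and 2603 had 3. Over all of them the median heart ratio was -0.02.

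The 4 arrays resembled each other little. Across probes, Spearman's rank correlation was 0.142 between replicates 1 and 2 and 0.223 between replicates 3 and 4, which share a dye orientation, and lay between -0.146 and -0.044 for the 4 pairs with opposite orientations. Different probes of the same gene, compared in 2178 genes, had a rank correlation of 0.017 and the same sign in 52.5%. These are descriptions over probes of the same arrays, which share hybridisation and dye.

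Part of this scatter has a visible form. Many probes of an array held exactly the same ratio to the third decimal. On heart replicate 3, 1101 probes stood at exactly -0.191, 508 at 0.809, 330 at -1.191 and 323 at 1.396. A value was called a repeated level where at least 10 probes of the array shared it and their number was at least 5 times the median count of its neighbours. Repeated levels held 32.18%, 22.73%, 56.82% and 19.79% of the values on replicates 1 to 4. Among ratios larger than 1 in size the shares were 60.5%, 44.8%, 84.9% and 49.0%. The levels of an array were spaced like the log2 of ratios of small whole numbers: 74.0% to 78.4% of the values on them lay within 0.003 of such a ratio of numbers up to 12, after 1 constant shift per array. Whether weak signals produced these levels was not tested, since no spot intensities were used here. For the genes that passed with array weights, the number of arrays concerned is given below.

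**Figure D1:**
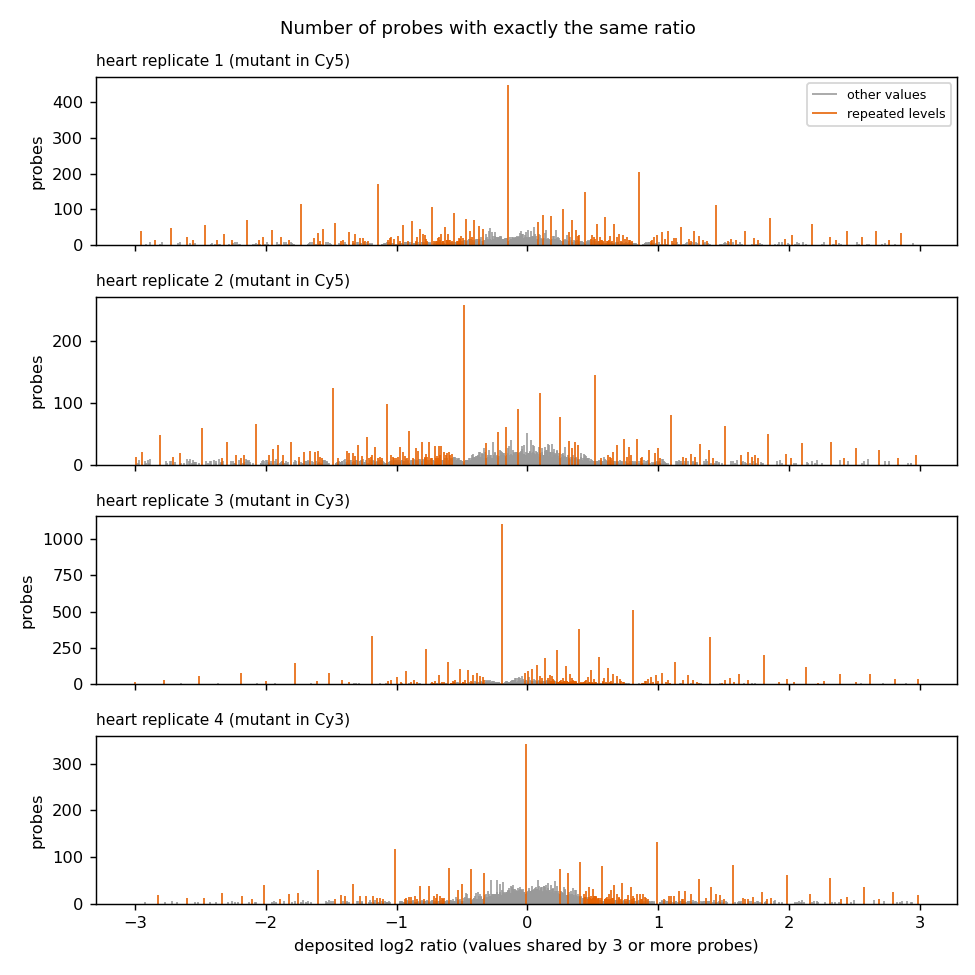
Number of probes (y axis) with exactly the same deposited log2 ratio (x axis, -3 to 3) on each of the 4 heart arrays, for values shared by at least 3 probes, with repeated levels in orange and other values in grey. Single values stand far above their neighbours on each array, the highest being 1101 probes at -0.191 on replicate 3.

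The wild-type channel of replicate 2 is labelled skeletal muscle, not heart. On that array the median ratio was 0.02 over 23 genes of the cardiac and slow sarcomere list and 0.08 over 20 genes of the fast skeletal sarcomere list. Of single genes known from fast skeletal muscle, Mylpf stood at -0.04 there, Myh4 at -0.06, Ckm at 0.08, Tnnt3 at 0.11 and Tnnc2 at -0.27. Of the cardiac genes, Actc1 stood at 0.12 and Mybpc3 at -0.10, whereas Tnnt2 was at -0.49, Tnni3 at -0.95 and Myl3 at 1.10, on both sides of 0. On replicate 1 Tnni3 was at -0.68 and Tnnt2 at -1.05, and on replicate 4 Myl3 was at 1.40, so that none of these 3 was far from 0 on replicate 2 alone. These values do not settle which tissue the channel held. The difference between the medians of both lists was -0.30, -0.05, -0.15 and -0.25 on replicates 1 to 4, against -0.73 to 1.19 on arrays of other organs. The array was kept. The result without it is given for the genes that passed with array weights, where they could be tested, and for several of the lists. The ratios do not hold levels, so the abundance of heart muscle genes in each channel cannot be read from them.

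Nr4a1 was lower in the mutant pool on all 4 heart arrays, at -0.91, -0.61, -0.44 and -0.73 on replicates 1 to 4. This sign was part of the basis for reading the direction of the ratios, so it is no separate check of the direction or of the mutant label. The values of both dye orientations overlapped, and none lay on a repeated level. The fitted log2 ratio was -0.67 ± 0.26 (SE, 4 arrays), a level 1.59-fold lower. Its unadjusted p was 0.0204 in the limma fit with 1 spread for all organs, and adjusted over all 13844 rows (limma, Benjamini-Hochberg) it was 1. In the fit with array weights, described below, the adjusted p was 0.0468 (limma), and over the other weighted fits it ranged from 0.0269 to 1, passing in 4 of 15. Without replicate 2 the ratio was -0.74 in the shared-spread fit. Where the probe lies within Nr4a1 is not given here, nor which stretch of the gene the mutation removes, so the value is no check of the mutant label if the probe lies outside that stretch.

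In the other organs Nr4a1 had values between -2.54 and 0.08. The heart ratio lay among them, below those of lung (-0.38 ± 0.26) and testis (-0.24 ± 0.31) and above those of spleen (-0.75 ± 0.26), brown adipose tissue (-1.14 ± 0.26) and skeletal muscle (-1.73 ± 0.31). Neighbours in this order differed by less than their standard errors added, except brown adipose tissue and skeletal muscle. The difference between heart and skeletal muscle was 1.06 ± 0.41 and did not pass (limma, adjusted p = 0.319). Of the relatives of Nr4a1, Nr4a2 had no value on any heart array and Nr4a3 had 1, at -3.55 on replicate 2, so neither could be tested. Replicate 2 has the mutant in Cy5. In the other organs every Nr4a3 value was below 0 with the mutant in Cy5 and above 0 with it in Cy3.

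**Figure D2:**
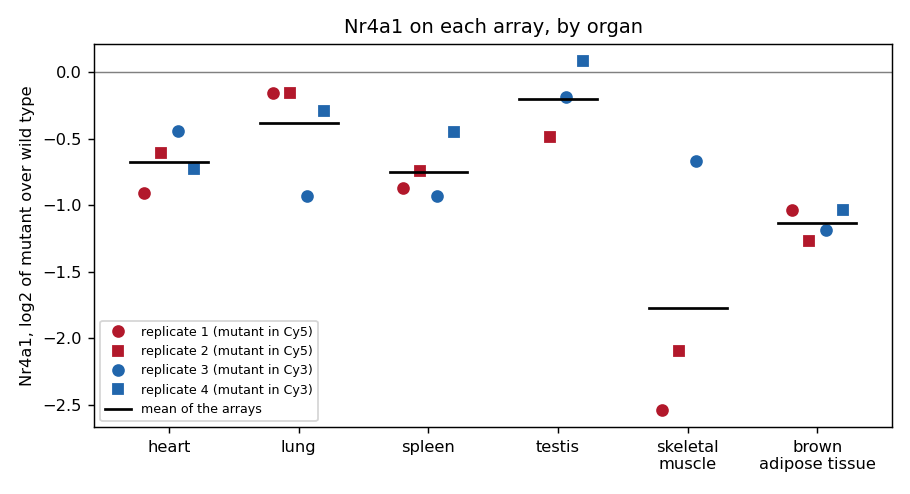
Log2 ratio of mutant over wild type for Nr4a1 (y axis) on each array of 6 organs (x axis), red with the mutant pool in Cy5 and blue with it in Cy3; black bars are plain means of the arrays. The 4 heart values lie between -0.91 and -0.44.

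Across the whole table, no gene passed in heart in the fit with 1 spread for all organs. In limma with Benjamini-Hochberg adjustment 0 of 13844 rows (0%) had an adjusted p under 0.05, and 284 (2.05%) had an unadjusted p under 0.05, 128 higher and 156 lower in the mutant pool. Heart fitted alone, with 2 residual degrees of freedom, also gave 0, with 979 rows under an unadjusted p of 0.05 and a smallest adjusted p of 0.706. The shared spread is that of all organs, some of which were noisier. limma's array weights, which rate each array by its scatter around the fit, gave the heart arrays 2.10, 1.78, 3.44 and 4.31, against 0.131 to 0.743 for the arrays of skeletal muscle. With these weights 41 rows (0.296%) passed in heart, 15 higher (0.108%) and 26 lower (0.188%) in the mutant pool, and 1314 rows (9.49%) had an unadjusted p under 0.05, 4.61% of all rows higher and 4.88% lower. For comparison, 1009 rows (7.29%) were above 0 and 1267 (9.15%) below 0 on every heart array with a value. By the fitted ratio, 6612 of the 13844 rows were above 0 and 7229 below 0. These are the background for the counts of list members above and below 0 that follow.

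Of the 41 rows, 26 have a gene symbol: 7 genes were higher and 19 lower. All of their adjusted p-values below come from limma with array weights and Benjamini-Hochberg adjustment over 13844 rows, and their ratios and standard errors from the fit with shared spread, in which none of them passed. Of these 26 genes, 23 had 1 sign on every array with a value, 16 had 4 values, 3 had no value on a repeated level (Nr4a1, Slc41a3 and Herpud1), 6 had 1 such array (Aimp1, Ccl17, H2-K1, Nova2, Txnip and Wdr63) and 17 had at least 2. The 17 were Cd5l, Jak2, Kat7, Mllt1, Mrpl14, Pfn1, Ppm1h, Sigirr and Vstm2l with 2, Arid4a, Atp5h, Cetn4, Fkbp9, Rnd2 and Tssk2 with 3, and Ccl8 and Wnt6 with 4. Among all rows tested the numbers with 0, 1 and at least 2 such arrays were 3943, 4270 and 5631. With all values on repeated levels left out, 2 of 8837 rows passed with array weights (0.0226%), Slc41a3 and a probe without a symbol, both higher in the mutant pool. Without replicate 2, 12 of the 21 genes that could still be tested passed (Aimp1, Ccl8, Herpud1, Jak2, Mllt1, Pfn1, Ppm1h, Slc41a3, Tssk2, Txnip, Wdr63 and Wnt6). Atp5h, Ccl17, Cetn4, Fkbp9, H2-K1, Kat7, Nova2, Nr4a1 and Sigirr did not pass without it, and Arid4a, Cd5l, Mrpl14, Rnd2 and Vstm2l had too few values. None of the 26 genes passed under each of the omissions of 1 heart array.

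**Figure D3:**
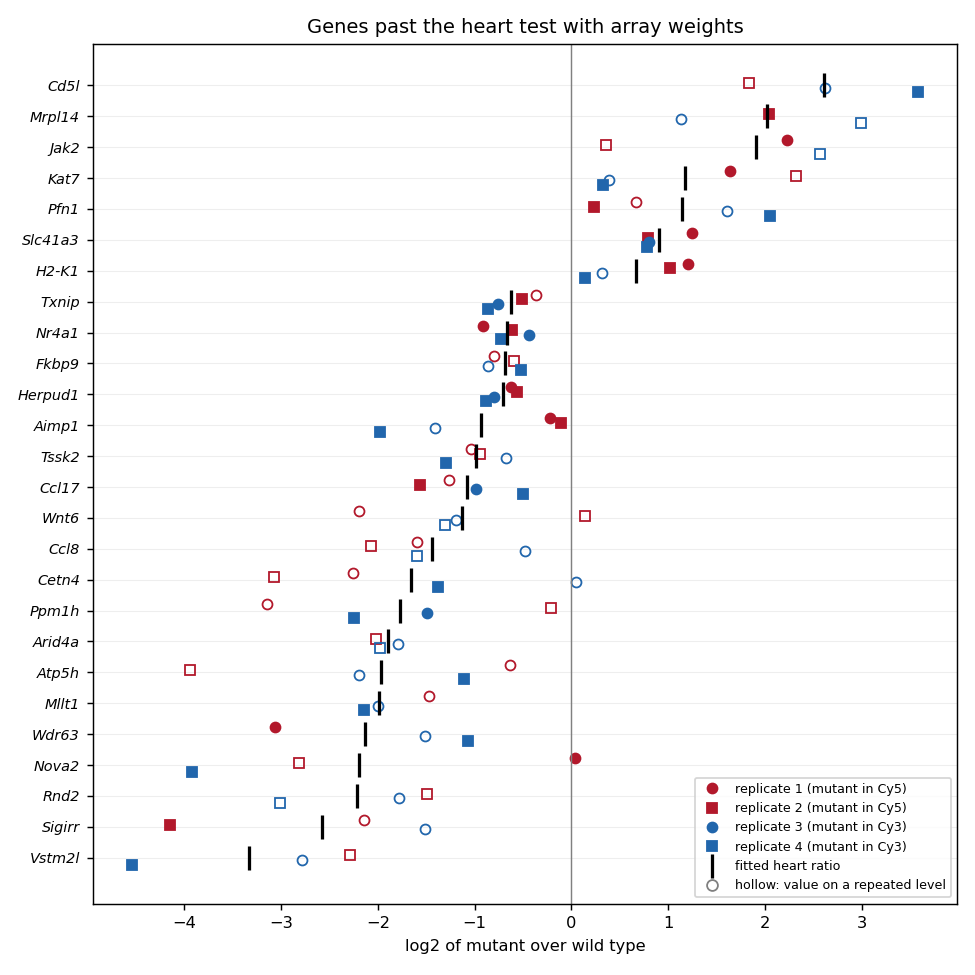
Log2 ratio of mutant over wild type (x axis) on each heart array for the 26 genes with a symbol that passed with array weights (y axis), ordered by the fitted ratio (black bars); red is mutant in Cy5, blue mutant in Cy3, and hollow symbols are values on a repeated level. The values of Slc41a3, Nr4a1 and Herpud1 lie close together and are all filled, whereas most genes with ratios beyond 1 in size have hollow symbols and a wide spread.

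Slc41a3, which belongs to a family of magnesium transporters, was higher in the mutant pool. It stood at 1.24, 0.79, 0.80 and 0.78 on replicates 1 to 4, so that replicate 1 was the highest and the other 3 were close together. The ratio was 0.90 ± 0.28 (SE, 4 arrays), a level 1.87-fold higher, with an adjusted p of 0.0145 (limma, array weights), and 0.0198 with values on repeated levels left out. It passed in 12 of 15 other weighted fits, in which its adjusted p ranged from 0.00867 to 0.0661, and without replicate 2 the ratio in that fit was 0.89 (adjusted p = 0.03). In the other organs the ratio was between 0.03 ± 0.28 (testis) and 0.65 ± 0.28 (lung), and the difference between heart and their mean did not pass (0.54, adjusted p = 1 in the shared-spread fit of limma).

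Herpud1 and Txnip, both known as genes that respond to stress, were lower. Herpud1 encodes a membrane protein of the endoplasmic reticulum that takes part in the removal of misfolded proteins. It stood at -0.62, -0.56, -0.80 and -0.88 on replicates 1 to 4, all below -0.5 and none on a repeated level, with a ratio of -0.71 ± 0.24 (SE, 4 arrays), a level 1.64-fold lower (adjusted p = 0.0158, limma with array weights). It passed in 11 of 15 other weighted fits and had an adjusted p of 0.0563 with values on repeated levels left out. Txnip, which binds and inhibits thioredoxin and restrains glucose uptake, stood at -0.37, -0.51, -0.76 and -0.86, lower on the arrays with the mutant in Cy3 than on those with it in Cy5. Its ratio was -0.62 ± 0.25, 1.54-fold lower (adjusted p = 0.0145), it passed in 13 of 15 other weighted fits, and with repeated levels left out its adjusted p was 0.0934. Herpud1 was below 0 in all of the other organs as well, from -0.16 ± 0.24 in testis to -0.97 ± 0.24 in skeletal muscle, and so was Txnip, from -0.22 ± 0.25 in spleen to -0.75 ± 0.25 in brown adipose tissue.

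Fkbp9, a prolyl isomerase of the endoplasmic reticulum, had a ratio of -0.69 ± 0.25 (adjusted p = 0.0493), but its 2 probes disagreed, at -1.35 and -0.04. With values on repeated levels left out its ratio was -0.11. Aimp1, a scaffold of the complex of aminoacyl-tRNA synthetases, was near 0 with the mutant in Cy5 (-0.22 and -0.11) and at -1.41 and -1.98 with it in Cy3, and its ratio of -0.93 ± 0.32 (adjusted p = 0.0257) rests on the latter.

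In the list of chemokines and cytokines, 14 of 38 genes were measured, 10 below and 4 above 0, with a median of -0.18 (-0.09 without replicate 2) and array medians of -0.10, -0.36, 0.03 and 0.07. Of these 1 passed with array weights as lower, against 0.188% of all rows. That gene, Ccl8, which attracts monocytes, stood at -1.60, -2.07, -0.48 and -1.60 on replicates 1 to 4, all below 0 and all on repeated levels. The ratio was -1.44 ± 0.49 (SE, 4 arrays), 2.71-fold lower, with an adjusted p of 0.0141 (limma, array weights), and it passed in 13 of 14 other weighted fits. With repeated levels left out it could not be tested. Ccl17, a chemokine that attracts T cells and is not in that list, stood at -1.26, -1.56, -0.99 and -0.50, with a ratio of -1.08 ± 0.33 (adjusted p = 0.0368), and passed in 5 of 15 other weighted fits. Its dye term was -1.04 (limma, unadjusted p = 0.00956). Ccl8 went the other way in skeletal muscle, at 1.05 ± 0.49, but the difference of -2.48 ± 0.70 between heart and skeletal muscle did not pass (limma, adjusted p = 0.132).

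H2-K1, a classical class I histocompatibility heavy chain, was higher on every array but unevenly. It stood at 1.20 and 1.02 with the mutant in Cy5 and at 0.32 and 0.14 with it in Cy3, so that the orientations did not overlap, and its dye term was 0.53 (limma, unadjusted p = 0.00916). The ratio was 0.67 ± 0.22, 1.59-fold higher (adjusted p = 0.0272 with array weights), and it passed in none of the weighted fits that left out 1 heart array. Cd5l, secreted by macrophages, had values on 3 arrays (1.83, 2.62 and 3.58 on replicates 2 to 4, the first 2 of them on repeated levels) and a ratio of 2.61 ± 0.78 (adjusted p = 0.0147). Jak2, the kinase coupled to many cytokine receptors, had values of 2.23, 0.36 and 2.57 on replicates 1, 2 and 4 and a ratio of 1.91 ± 0.57 (adjusted p = 0.0272). Sigirr, an inhibitory receptor of the interleukin 1 receptor family, stood at -2.14, -4.15 and -1.51 on replicates 1 to 3, with a ratio of -2.58 ± 0.56 (adjusted p = 0.0272), but without replicate 2 the ratio in the weighted fit was -1.72 and did not pass (adjusted p = 0.0804).

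Among the remaining genes that passed, Kat7, a histone acetyltransferase, was higher, at 1.64, 2.32, 0.39 and 0.33 on replicates 1 to 4, again more so with the mutant in Cy5, with a ratio of 1.17 ± 0.32 (adjusted p = 0.0493). Without replicate 2 it did not pass in the weighted fit (0.79, adjusted p = 0.133). Arid4a, a partner of the retinoblastoma protein, stood at -2.02, -1.79 and -1.98 on replicates 2 to 4, but each is a mean of 2 probes that ranged from -3.55 to -0.49. Its ratio was -1.90 ± 0.74 (adjusted p = 0.049). Mllt1, which reads acetylated histones, had a ratio of -1.99 ± 0.59 over 3 arrays (adjusted p = 0.0435). Nova2, a splicing regulator known from neurons, was at 0.04 on replicate 1 and at -2.81 and -3.92 on replicates 2 and 4.

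Promoters are shown for 3 of these genes: Slc41a3, the gene with a symbol that still passed without repeated levels, Kat7, which carries an NBRE, and Herpud1. The motifs were chosen after the calls were seen. NBRE was searched as AAAGGTCA on both strands in the 250 bases before the start of each gene (RefSeq, GRCm38.p6). It was present in 1.34% of 32851 promoters, in 77 of 6967 tested genes with a promoter (1.11%), and in 1 of the 22 genes with a promoter that passed with array weights. ERSE-II, an element known from genes induced by misfolded proteins and searched on both strands as ATTGG and CCACG with 1 base between them, was present in 10 promoters (0.03%), and Herpud1 was the one of the 22 that held it. ERSE, searched on both strands as CCAAT and CCACG with 9 bases between them, was present in 0.11% of promoters and in 0 of the 22. The letters of NBRE can lie in the free bases of an ERSE, and ERSE-II can share the CCACG of an ERSE. A match describes the letters and does not show a bound site. Capitals mark NBRE in Kat7, from 25 to 18 bases before the start, and ERSE-II in Herpud1, from 52 to 42 bases before it. The sequences run 5′ to 3′ on the strand of the gene, at chr6:90618996-90619245 on the plus strand for Slc41a3, chr8:94386179-94386428 on the plus strand for Herpud1 and chr11:95310247-95310496 on the minus strand for Kat7.
Slc41a3: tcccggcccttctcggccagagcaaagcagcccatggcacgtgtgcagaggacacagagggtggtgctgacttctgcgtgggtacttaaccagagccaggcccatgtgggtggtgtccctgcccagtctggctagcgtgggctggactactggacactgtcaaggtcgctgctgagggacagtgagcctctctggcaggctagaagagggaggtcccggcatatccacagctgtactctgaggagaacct
Herpud1: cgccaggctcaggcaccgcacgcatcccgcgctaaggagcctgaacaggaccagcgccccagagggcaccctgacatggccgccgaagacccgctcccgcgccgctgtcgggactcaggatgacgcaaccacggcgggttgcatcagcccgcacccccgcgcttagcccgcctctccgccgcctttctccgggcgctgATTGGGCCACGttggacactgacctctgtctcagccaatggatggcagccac
Kat7: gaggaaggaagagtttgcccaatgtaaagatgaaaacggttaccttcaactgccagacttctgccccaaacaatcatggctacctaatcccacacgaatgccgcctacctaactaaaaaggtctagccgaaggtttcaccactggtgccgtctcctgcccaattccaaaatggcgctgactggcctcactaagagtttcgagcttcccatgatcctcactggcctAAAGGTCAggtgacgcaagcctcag

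Atp5h, a subunit of the mitochondrial ATP synthase, stood at -0.64, -3.94, -2.19 and -1.11 on replicates 1 to 4, with a ratio of -1.97 ± 0.56 (adjusted p = 0.0257), but the value on replicate 1 came from 2 probes and those on the other 3 arrays from a different probe. Without replicate 2 the ratio in the weighted fit was -1.29 and did not pass (adjusted p = 0.0534). Mrpl14, a protein of the mitochondrial ribosome, had values of 2.04, 1.13 and 2.99 on replicates 2 to 4 and a ratio of 2.02 ± 0.58. Pfn1, which binds actin, had a ratio of 1.14 ± 0.39, and its 2 probes stood at 2.48 and 0.13. Rnd2, a small GTPase, had a ratio of -2.22 ± 0.71. Of 3 genes known from cilia, centrioles or germ cells, Cetn4 had a ratio of -1.66 ± 0.72 and Wdr63 of -2.13 ± 0.56. Tssk2, a kinase of the testis, stood at -1.04, -0.94, -0.68 and -1.30, a ratio of -0.99 ± 0.32 (adjusted p = 0.0145) that passed in 12 of 14 other weighted fits. Wnt6, a secreted ligand (-1.13 ± 0.38), was lower on 3 arrays and at 0.14 on replicate 2. Ppm1h, a protein phosphatase, had a ratio of -1.77 ± 0.66, but neither of its 2 probes covered all arrays. The value on replicate 1 (-3.14) came from 1 probe and those on replicates 3 and 4 (-1.49 and -2.25) from the other. On replicate 2, where both had values, they stood at -0.49 and 0.07. Vstm2l had the lowest ratio, at -3.33 ± 0.82 over replicates 2 to 4.

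Several more genes with 1 sign on every array had a small unadjusted p and passed in neither fit. In the shared-spread fit of limma, Fkbp11, a relative of Fkbp9, had a ratio of -1.87 ± 0.53 (unadjusted p = 0.00488), with all 4 values on repeated levels, and Fhl5, a LIM protein of the testis, one of -1.52 ± 0.47. On the higher side were Vipas39 (2.42 ± 0.75), a protein of vesicle sorting, Wdfy1 (1.54 ± 0.51), a protein of endosomes, and the testis linker histone H1f6 (1.53 ± 0.51). With array weights Wdfy1 was just outside the threshold (limma, adjusted p = 0.0546), as were the proteasome subunit gene Psma5 (0.0526) and B2m (0.0523).

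Genes of the contractile apparatus of heart muscle lay slightly below 0 and none passed. Of 29 genes in the cardiac and slow sarcomere list 20 were measured, 17 with a ratio below 0, against 7229 of all 13844 rows. Of the 20, 8 were below 0 on every array, against 9.15% of all rows. The median of the 20 was -0.25, against -0.02 over all rows tested. The median of these genes was -0.31, 0.00, -0.36 and -0.29 on replicates 1 to 4, so that replicate 2, the array with the skeletal muscle label, stood apart. Without it the median of fitted ratios was -0.31. Myl7, the regulatory light chain of atrial myosin, stood at -0.53, -0.09, -0.32 and -0.45 (-0.35 ± 0.26), and Mybpc3, myosin binding protein C of the heart, at -0.43, -0.10, -0.33 and -0.30 (-0.29 ± 0.37). Lmod2, which nucleates actin, had a ratio of -0.48 ± 0.40, and Pdlim3, a protein of the Z disc, one of -0.79 ± 0.53. Myl2, the ventricular light chain, and the cardiac actin Actc1 were below 0 on 3 arrays and at 0.17 and 0.12 on replicate 2. None of the 20 genes passed with array weights, and 4 were lower at an unadjusted p under 0.05 there (limma), against 4.88% of all rows. Of 24 fast skeletal sarcomere genes 21 were measured, with a median of fitted ratios of 0.11, which was below 0 in 1 of 15 alternatives, and none past the test. The array medians of that list were -0.06, 0.08, -0.21 and -0.02, below 0 on 3 of 4 arrays, so that it has no settled direction.

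By the median of fitted ratios, lists of mitochondrial energy genes lay below 0 to a similar small extent. Of 63 measured genes of the respiratory chain and ATP synthase, 52 had a ratio below 0, against 7229 of all 13844 rows. Of the 63, 16 were below 0 on every array (9.15% of all rows were) and 1 above 0 on every array. The median was -0.14 (-0.17 without replicate 2). By array it was -0.05 and 0.02 with the mutant in Cy5 and -0.21 and -0.21 with it in Cy3. Apart from Atp5h, none of the 63 genes passed with array weights. Uqcrc2, a core subunit of complex III, stood at -0.35, -0.36, -0.21 and -0.17 (-0.27 ± 0.23). Ndufs4, a subunit of complex I, was at -0.17, -0.32, -0.19 and -1.04 (-0.43 ± 0.31). Uqcrc2 and Ndufs4 were named after their values were seen. The gene above 0 on every array with a value was Ndufs8, at 0.24, 0.39 and 2.42 on replicates 2 to 4. Its ratio of 1 ± 1.06 was the highest of the list, and its value on replicate 3 lay on a repeated level. Of 19 measured genes of the tricarboxylic acid cycle, 17 were below 0 with a median of -0.16 (-0.17 without replicate 2) and none passed. The median of these genes was -0.10, -0.05, -0.27 and -0.18 on replicates 1 to 4. Ogdh, of the 2-oxoglutarate dehydrogenase complex, stood at -0.27, -0.21, -0.27 and -0.28 (-0.26 ± 0.23), and Fh1, fumarate hydratase, had a ratio of -0.19 ± 0.28.

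Genes of fatty acid uptake and oxidation also lay below 0. Of 21 measured genes, 20 had a ratio below 0, against 7229 of all 13844 rows. Of the 21, 7 were below 0 on every array (9.15% of all rows were). The median was -0.17 (-0.20 without replicate 2), and by array -0.20, -0.06, -0.27 and -0.13 on replicates 1 to 4. None of the genes passed in either fit. Decr1, needed to oxidise unsaturated fatty acids, stood at -0.46, -0.31, -0.46 and -0.43, close to each other, but its error in the shared fit was large (-0.41 ± 0.69). Acadvl, the first dehydrogenase of long-chain oxidation, stood at -0.22, -0.23, -0.28 and -0.18 (-0.23 ± 0.22), Cpt2, which brings acyl groups into mitochondria, had a ratio of -0.18 ± 0.27, and Mlycd, which removes malonyl-CoA, one of -0.21 ± 0.22. Pnpla2, the lipase that starts the breakdown of stored fat, had a ratio of -1.75 ± 0.93 over 3 arrays. Of 22 measured genes of glucose and glycogen use 15 were below 0, with a median of -0.11. Gpd1 was above 0 on its 3 arrays (0.92 ± 0.41) with a dye term of -1.24 (limma, unadjusted p = 0.00396), and Pfkfb2, the heart form of the enzyme that makes fructose 2,6-bisphosphate, was below 0 on every array (-1.58 ± 0.71, adjusted p = 0.228 with array weights). The 50 measured cytosolic ribosomal protein genes, which are no energy genes, had a median of -0.13 (-0.15 without replicate 2) with 38 below 0.

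**Figure D4:**
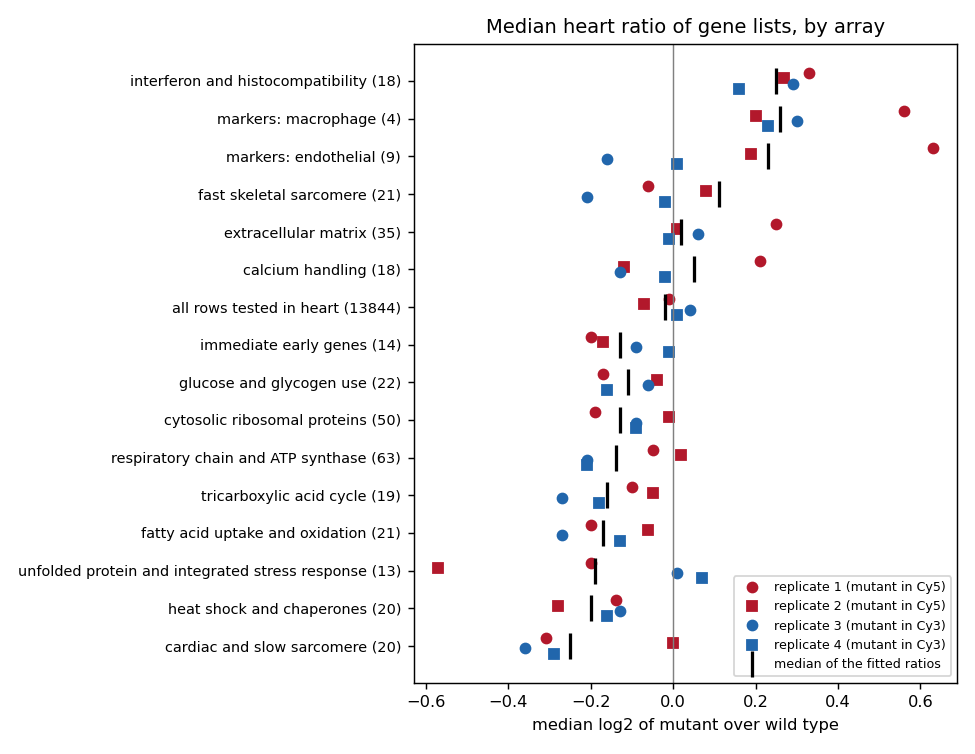
Median log2 ratio of mutant over wild type (x axis) of 15 gene lists and of all rows tested (y axis, number of measured genes in brackets) on each heart array, red for mutant in Cy5 and blue for mutant in Cy3, with black bars for the median of fitted ratios. The interferon and histocompatibility list (0.16 to 0.33) and the macrophage list (0.20 to 0.56) lie above 0 on every array. The cardiac and slow sarcomere, tricarboxylic acid cycle, fatty acid, glucose, heat shock, immediate early and ribosomal lists lie at or below 0 on every array.

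Heat shock genes and chaperones had a median of -0.20 over 20 measured genes, 15 below 0 and 6 below 0 on every array (9.15% of all rows were), and none passed. Without replicate 2 the median was -0.21. Hsph1, a nucleotide exchange factor of Hsp70, stood at -0.48, -0.66, -0.66 and -0.87 (-0.67 ± 0.29, adjusted p = 0.0682 with limma's array weights), and Dnaja1, an Hsp70 co-chaperone, at -0.64, -0.37, -0.60 and -0.54 (-0.54 ± 0.25, adjusted p = 0.108). Neither had a value on a repeated level. Hspb1, the small heat shock protein of many tissues, was at -1.33 and -2.42 with the mutant in Cy5 and at -0.29 and -0.26 with it in Cy3. Bag3, which links Hsp70 to the removal of damaged filament proteins in muscle, had a ratio of -0.49 ± 0.39, and Hspa9, the Hsp70 of mitochondria, one of -0.30 ± 0.24.

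In the list of the unfolded protein and integrated stress response, Herpud1 was the member that passed with array weights among 13 measured, 9 of which were below 0 (median -0.19, and -0.08 without replicate 2). The medians by array were -0.20, -0.57, 0.01 and 0.07, of both signs. Xbp1, a transcription factor of this response, had a ratio of -0.25 ± 0.21, and Chac1, a target of its Atf4 arm, was above 0 on its 3 arrays (0.79 ± 0.66). Among 14 measured immediate early genes 9 were below 0 (median -0.13) and none passed. Atf3, a transcription factor of the stress response, stood at -0.44, -0.54, -0.73 and -0.59, all below 0 and off the repeated levels, with a ratio of -0.57 ± 0.34 (adjusted p = 0.0947 with array weights). Zfp36, which shortens the life of cytokine transcripts, had a ratio of -0.20 ± 0.21, and Dusp1, a phosphatase of MAP kinases, was above 0 on its 3 arrays (0.94 ± 0.74). In the circadian list, Dbp stood at 0.02, 1.07, 0.65 and 0.66 (0.60 ± 0.27, adjusted p = 0.0649 with array weights) and Per3 at -0.33, -0.33, -0.28 and -0.23 (-0.29 ± 0.22, adjusted p = 0.357), 1 on each side of 0. Clock time at tissue collection is not given in the sources used here.

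Interferon and histocompatibility genes were the list furthest above 0 among those with at least 10 measured genes. Of 18 measured, 13 had a ratio above 0, against 6612 of all 13844 rows. Of the 18, 8 were above 0 on every array, against 7.29% of all rows. In the other direction 5 had a ratio below 0, the lowest at -0.49. Of the 18, 1 was below 0 on every array, against 9.15% of all rows. The median was 0.25, and 0.33, 0.27, 0.29 and 0.16 on replicates 1 to 4. H2-K1 passed with array weights, as described above. B2m, the light chain of class I molecules, stood at 0.33, 0.63, 0.62 and 0.69, with no value on a repeated level (0.57 ± 0.24), and Tap1, which loads peptides onto them, at 0.55, 0.56, 0.46 and 0.41 (0.49 ± 0.51). Stat2, of the interferon receptor pathway, had a ratio of 0.37 ± 0.36, the antiviral gene Mx2 one of 0.63 ± 0.76, and Irf8 one of 0.17 ± 0.25. B2m, Tap1, Stat2 and Irf8 were named after their values were seen. Without replicate 2 the median was 0.21.

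Markers of the cell types that a heart can hold had no gene past the test in either fit. The 4 measured of 14 macrophage markers had a median of 0.26, and their medians by array were 0.56, 0.20, 0.30 and 0.23. Of the 4, 3 had a ratio above 0 and 1 a ratio below 0 (-0.10). Cd68, a lysosomal protein of macrophages, stood at 0.81, 0.16, 0.39 and 0.39 and the lysozyme gene Lyz2 at 0.60, 0.24, 0.20 and 0.27. These 2 of the 4 were above 0 on every array, against 7.29% of all rows. Their part in the higher interferon and histocompatibility values was not tested. Endothelial markers had a median of 0.23 (9 of 12 measured), but of 0.63 and 0.19 with the mutant in Cy5 and -0.16 and 0.01 with it in Cy3. Neutrophil markers had a median of 0.21 (8 of 10 measured), fibroblast markers 0.04 (9 of 12), B cell markers -0.03 (4 of 10), T cell and thymus markers 0.03 (5 of 14), red cell markers 0.12 (3 of 11), fat cell markers 0.06 (9 of 12), smooth muscle and pericyte markers 0.13 (8 of 11), and nerve and Schwann cell markers 0.05 (4 of 10). None of the 9 markers of mesothelium and epicardium had enough values. The medians of the neutrophil, fibroblast, T cell, fat cell and nerve markers turned sign or reached 0 in 1 or 2 of 15 alternatives. Cell types were compared by ratios, since levels of their markers in each channel cannot be read. Cardiomyocyte markers had a median of -0.22 (7 of 12 measured, 6 below 0). In bulk RNA, fewer cells of a type and less RNA per cell cannot be told apart.

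Genes of the extracellular matrix were found on both sides of 0, with a median of 0.02 over 35 measured (1 of 15 alternatives turned its sign) and none past the test. Dcn, a small matrix proteoglycan, stood at -0.52, -0.55, -0.25 and -0.23 (-0.39 ± 0.24, adjusted p = 0.17 with array weights), and Timp3, an inhibitor of metalloproteases, at -0.53, -0.35, -0.47 and -0.55 (-0.48 ± 0.27), although 1 of its 4 probes had a ratio of 0.11. Eln, elastin, was above 0 on every array at 3.05, 0.23, 1.06 and 0.64 (1.25 ± 0.61). Calcium handling genes had a median of 0.05 over 18 measured, of the other sign in 5 of 15 alternatives. Jph2, which joins the sarcoplasmic reticulum to the cell membrane, was at -0.13 ± 0.27, and Slc8a1, the sodium-calcium exchanger of heart muscle, at 0.47 ± 0.66 over 3 arrays. Among 16 measured genes of adrenergic and vasoactive signalling, Prkar1a, the regulatory subunit of protein kinase A, stood at 1.73, 1.32, 0.39 and 0.74 (1.05 ± 0.50), all on repeated levels, and Nos3, endothelial nitric oxide synthase, had a ratio of 0.85 ± 0.54. Of 19 measured nuclear receptors and coregulators outside the NR4A family, Rxrb, a retinoid receptor that can pair with Nur77, stood at -0.62, -1.02, -0.45 and -0.64 (-0.68 ± 0.74), and none passed.

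Against the other organs together, few genes differed. In the contrast of heart with the mean of the other 5 organs, 0 of 7553 rows (0%) passed in limma's shared-spread fit, where 125 had an unadjusted p under 0.05, and 15 (0.199%) passed with array weights, 0.0794% higher and 0.119% lower in heart, of which 4 have a symbol. The exocrine pancreas genes Ctrl and Zg16 were among them, with heart ratios near 0. Ctrl was at 0.10 ± 0.41 in heart and at -6.23 ± 0.41 in spleen, and Zg16 at 0.16 ± 0.26 and -5.24 ± 0.26. Tnni2, the fast troponin I, stood at 0.58, -0.16, 1.03 and 0.82 in heart (0.57 ± 0.34) and at -1.99 in lung and -1.78 in spleen. Sar1a, a GTPase of vesicle export, differed by -0.68 (limma with array weights, adjusted p = 0.045).

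Skeletal muscle is the other striated muscle of the series, and more genes differed between it and the heart. In limma's shared-spread fit 74 of 11026 rows (0.671%) passed, 8 higher (0.0726%) and 66 lower (0.599%) in heart, and 35 of them have a symbol. For 34 of these 35 genes the heart ratio lay within 0.5 of 0. Over all rows tested in heart the median size of the ratio was 0.2, so heart ratios near 0 were common. The ratios in skeletal muscle were between 1.21 and 3.55 for the 30 genes lower in heart. They were between -4.07 and -1.62 for the 5 genes higher in heart. Large ratios in skeletal muscle follow in part from choosing the rows by this difference. Acadvl was at -0.23 in heart and 1.21 ± 0.22 in muscle (difference -1.44 ± 0.32, adjusted p = 0.039). Pdk2, a kinase that turns off pyruvate dehydrogenase, was at 0.00 in heart and 1.36 ± 0.22 in muscle (-1.36 ± 0.31, adjusted p = 0.0418). Prkaa2, a catalytic subunit of the energy sensor AMPK, was at 0.06 and 2.08 ± 0.23 (-2.03 ± 0.32, adjusted p = 0.00752). Jph2, glutamine synthetase (Glul), the giant thin-filament protein nebulin (Neb) and the ribosomal protein gene Rps16 also differed, by -1.75, -1.81, -2.41 and -3.10. The 2 probes of Glul had opposite signs on every heart array, with fitted heart ratios of -0.76 and 0.51. Of the probes of Neb, 1 stood at -3.73 on heart replicate 1 and at 1.47 on replicate 4. Denn2b, a regulator of Rab GTPases, differed the other way, by 2.64 ± 0.45. With array weights 86 rows passed (0.78%), 0.0544% higher and 0.726% lower in heart. After centring and scaling of the arrays 3 rows passed, 0 higher and 3 lower in heart. Without replicate 1, 2, 3 or 4 of the heart, 23, 17, 15 and 21 rows passed.

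**Figure D5:**
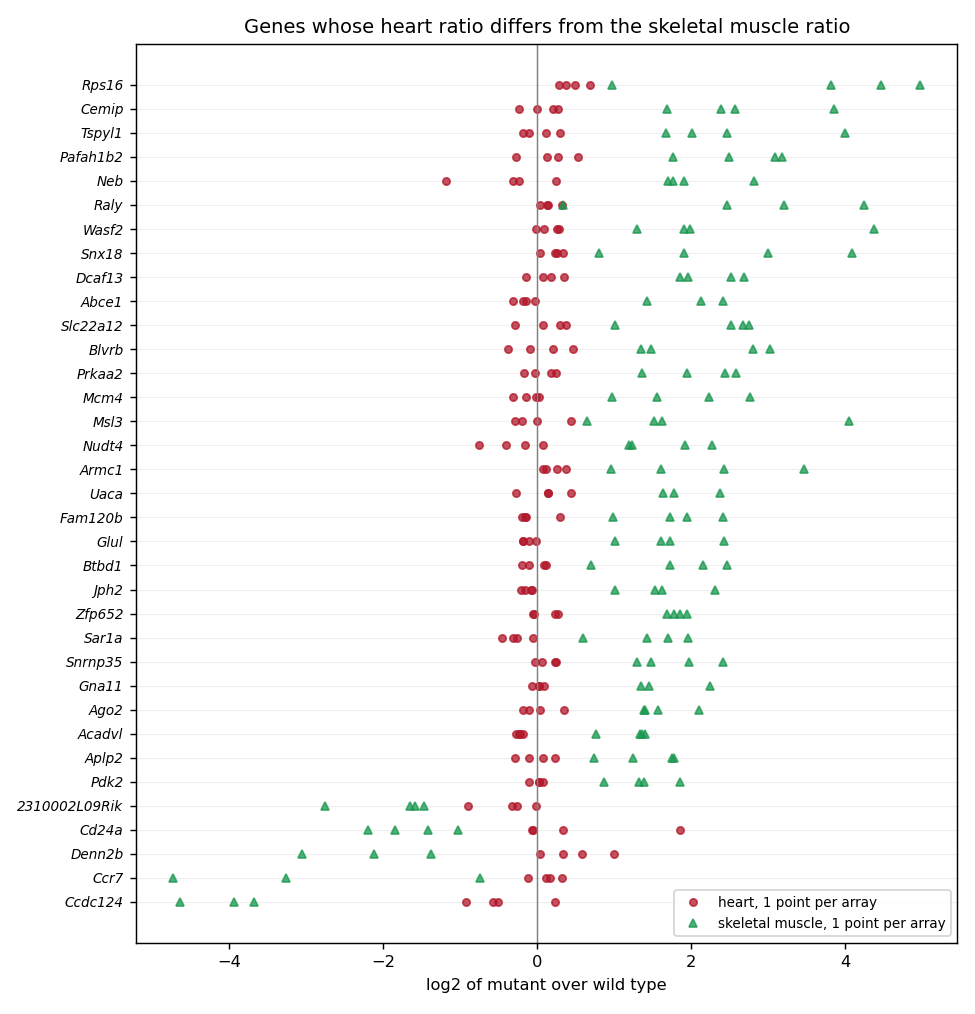
Log2 ratio of mutant over wild type (x axis) on each heart array (red circles) and each skeletal muscle array (green triangles) for the 35 genes with a symbol whose ratios differ between these organs (y axis). Heart values cluster near 0 and skeletal muscle values are spread widely, above 0 for 30 genes and below 0 for 5. The genes were chosen by this difference, and heart ratios near 0 are common among all rows.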

How the data were processed

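Two-colour cDNA arrays compared a Nur77-/- pool with a wild-type pool in 6 organs, 4 arrays per organ. The labelling reaction took 20 µg of RNA, per the labels. The authors deposited 1 log2 ratio per probe and array (20205 probes). Log base, direction, background correction, normalization, filters and software: not given in the sources used here. No value was turned or centred.

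Of the probes, 13891 have 1 symbol in the platform annotation, 5 several and 6309 none. The Entrez number of 13855 was found in RefSeq (GRCm38.p6), which changed 0 symbols. Values beyond 12 in size were treated as missing. Probes of a symbol were averaged, giving 16148 rows. Rows with at least 3 heart values and both dye orientations were tested with limma 3.58.1 (R 4.3.3, lmFit and eBayes) in 1 model over 24 arrays with 6 organ coefficients and a dye term, adjusted by Benjamini-Hochberg at a threshold of 0.05. Array weights were estimated on 3630 complete rows. Repeated levels were noticed in the values, and the fits without them, and all but 1 of those with array weights, were added after seeing the data. The procedure was tested on simulated data.

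Replicate numbers did not pair arrays: deviations of arrays with the same number in different organs correlated at a median of 0.0565 (20 pairs, -0.004 to 0.171), against 0.072 for other numbers of the same dye orientation.

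The arrays, gene lists and tests were chosen with earlier results of these data known. Named genes are Nr4a1 to Nr4a3, the 10 smallest unadjusted p in each direction with 1 sign on every array, all members of a list that pass or else its 2 largest ratios of 1 sign, and the 10 smallest adjusted p of heart minus other organs. No gene passed the shared-spread fit. Genes past the weighted fit outside this rule, further list members (such as B2m, Dnaja1, Acadvl and Prkaa2) and the promoters were chosen after their values were seen. Proteins were not used here.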

Additional observations from a re-analysis of the deposited data

Results flagged for a closer look

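In 3 of the 91 named genes with 4 heart values, 1 array lay far from the other 3, measured as its gap to the nearest array over the whole range. Ogdh was at -0.21 on replicate 2, the array with the skeletal muscle label, but its 4 values span less than 0.1. Slc41a3 was at 1.24 on replicate 1 and Ndufs4 at -1.04 on replicate 4. Chance flags about 1 in 20 such groups.

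The heart ratio differed from the skeletal muscle ratio by the test of the difference itself (limma, shared spread, adjusted p under 0.05) in 74 rows. Among the named genes these were Denn2b (2.64), Rps16 (-3.10), Neb (-2.41), Prkaa2 (-2.03), Glul (-1.81), Jph2 (-1.75), Acadvl (-1.44) and Pdk2 (-1.36), all as heart minus skeletal muscle on the log2 scale. Skeletal muscle and spleen arrays had the lowest mean array weights (0.41 and 0.38, against 2.91 in heart), and their part in the differences was not tested.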

How the results depend on the processing

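The fit with shared spread passed 0 rows in heart under every alternative except array weights, which gave 41. With weights and a second change, each chosen after seeing the data, the count was 22 after centring and scaling, 62 without a dye term, 24 with a dye term for each organ, 17 over rows with 4 values, 72 with 1 value per dye orientation, 165 with each probe a row, 2 without repeated levels, 27 with weights by organ, 19 with weights from all rows, and 26 to 64 without 1 heart array. Of the 64 without replicate 2, 22 were among the 41, and of the 26 without replicate 4, 12. Nr4a1 was at -0.68 with array weights and passed; over 16 alternatives its ratio ran from -0.95 to -0.61, and its unadjusted p was under 0.05 in 13.

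Heart minus other organs gave 15 rows with array weights and 1 without repeated levels. Heart minus skeletal muscle gave 47 rows after centring, 3 after centring and scaling, 133 with each probe a row, and 15 to 23 without 1 heart array. The fit of heart alone gives no contrast with other organs and was not run for these. A replicate block in place of the dye term gave 36 rows there, 0 in heart (283 at an unadjusted p under 0.05) and -0.67 for Nr4a1; with weights it gave 34.

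The medians of the cardiac and slow sarcomere, respiratory chain, tricarboxylic acid cycle, fatty acid, heat shock, ribosomal and interferon lists kept their sign under 15 alternatives each. Signs turned for Camp (-3.11), Cetn4 (0.73) and Prkar1a (-1.10) with values beyond 12 kept, for Cela3b (0.09) and Glul (0.06) without repeated levels, and when 1 heart array was left out for Ctrl (-0.20 to 0.23), Cela3b (up to 0.06), Ddr2 (-0.02 without replicate 3 or 4), Pdk2 (-0.03 and -0.01 without replicates 3 and 4) and Prkaa2 (-0.02 to 0.12). The cause was not tested.

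No spot intensities were used here, so signal over background could not limit the values. With 4 arrays of 1 pair of pools, the precision is that of the hybridisations.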
